A study of Mus musculus with 6 samples.

Results

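The 8 mature miRNAs described here come from the miR-17 to miR-92 cluster and its paralog, the miR-106b to miR-25 cluster: mmu-miR-17-5p, mmu-miR-20a-5p, mmu-miR-19b-3p, mmu-miR-92a-3p, mmu-miR-93-5p, mmu-miR-106b-5p, mmu-miR-106b-3p and mmu-miR-25-3p, written without the mouse prefix from here on. They were chosen by name, as 8 of the 1976 mouse miRNA rows of the deposited table, and were grouped by seed and by cluster. Small RNA was sequenced from vesicles, labelled exosomes, of primary hepatocytes (freshly isolated liver parenchymal cells) from wild-type C57BL/6J mice. One group, called PA, was exposed to palmitic acid, the main saturated fatty acid of animal fat, at 600 µM (3 libraries), and the Control group at 0 µM (3 libraries). All 6 libraries share genotype, cell source and library kit. Whether replicates of a group are from different mice or cultures, how long the exposure lasted and how vesicles were isolated is not stated in the labels, so a p-value here speaks only of library-to-library spread, which may be technical.

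miRNAs of this family are cut from polycistronic hairpin transcripts, and the bases after the first, the seed, largely set which messenger RNAs they repress. The miR-17 to miR-92 cluster is a Myc-driven, growth-linked transcript: miR-17 family members are known to repress cell-cycle inhibitors such as Cdkn1a. miR-92a is known for restraining angiogenesis in endothelial cells, and the miR-106b to miR-25 cluster lies within Mcm7, a replication licensing gene. The hairpins of a cluster start as one transcript, so unequal mature levels within a cluster are of interest.

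The mature sequences are shown because seed and cluster cut the family in different ways. They are from RefSeq (GRCm38.p6), which held all 8 members, with bases 2 to 8, the seed, in capitals. The first 4 share the miR-17 seed, the fifth has the miR-19 seed, and miR-92a-3p and miR-25-3p share the miR-25 and miR-92 seed. miR-106b-3p is the other arm of the miR-106b hairpin and has a seed of its own. miR-32-5p, from chromosome 4, is no member but carries the same seed as miR-92a-3p and miR-25-3p.
miR-17-5p: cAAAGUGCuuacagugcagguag
miR-20a-5p: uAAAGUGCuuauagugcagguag
miR-93-5p: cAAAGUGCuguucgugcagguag
miR-106b-5p: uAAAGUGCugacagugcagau
miR-19b-3p: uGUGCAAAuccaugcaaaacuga
miR-92a-3p: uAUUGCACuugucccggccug
miR-25-3p: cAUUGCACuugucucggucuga
miR-106b-3p: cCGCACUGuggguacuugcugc
miR-32-5p: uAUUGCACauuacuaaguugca

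Counting from 1 at the 5′ end, miR-17-5p differs from miR-20a-5p by C1U and C12U, and from miR-106a-5p, a paralog on chromosome X, by U10A alone. miR-92a-3p differs from miR-25-3p by U1C, C14U and C18U over the 21 bases compared. The way the authors assigned reads to such near copies is not given in the sources used here, so values of single miR-17 seed members carry that uncertainty.

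In GRCm38 the miR-17 to miR-92 cluster spans chr14:115043671-115044506 on the plus strand, 6 hairpins in 836 bases of an exon of the long noncoding RNA gene Mir17hg. The miR-106b to miR-25 cluster spans chr5:138165321-138165818 on the minus strand, 3 hairpins in 498 bases inside the protein-coding gene Mcm7. Mature miR-19b-3p and miR-92a-3p are encoded letter for letter in a second place, the miR-106a to miR-363 cluster at chrX:52741693-52742567, so reads of these 2 members cannot be tied to one locus.

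The deposited values are, as the numbers show, log2(adjusted count + 1), where the adjustment sets libraries to a common size. Reads were recovered from them and totalled 613481 to 799132 per PA library and 95237 to 657601 per Control library. The arms of miR-122, the main hepatocyte miRNA, and of its partner miR-122b (together called miR-122 reads) took 11.7% to 15.3% of reads in PA libraries and 69.2% to 87.7% in Control libraries. Other miRNAs therefore rest on 534301 to 676811 reads per PA library and on 29340 to 80742 per Control library. The median of the 181 miRNAs with enough signal to test was 1.94 log2 units higher in PA libraries, and each member's change is given against 0 and against that shift. All 4 hepatocyte markers checked (miR-122-5p, miR-192-5p, miR-194-5p and miR-148a-3p) were present in the libraries of both groups. In a bulk vesicle library, fewer vesicles carrying a miRNA and fewer copies per vesicle cannot be told apart.

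miR-17-5p, miR-20a-5p, miR-106b-5p and miR-19b-3p rose with palmitic acid, by 4.83 to 6.83 log2 units, and their PA and Control libraries did not overlap. miR-93-5p, which shares the miR-17 seed, was 4.47 log2 units higher but overlapped a Control library and did not pass the test. miR-92a-3p and miR-25-3p did not pass in either direction, with changes of 0.55 and -1.14, nor did miR-106b-3p. By limma with Benjamini-Hochberg adjustment below 0.05 over all 181 tested miRNAs, 4 of the 8 members were higher and 0 lower. Over all tested miRNAs 42.0% were called higher (76) and 14.4% lower (26), and 48.6% were higher with no overlap between groups (88). The members' share called higher is thus near the background, and their median change was 4.65 against 1.94 for all tested. With the median shift subtracted, 4 members were higher, where 26.5% of all tested were, and 2 (miR-92a-3p and miR-25-3p) were lower, where 32.6% were. All 8 members passed the signal filter, an adjusted count of at least 10 in 3 libraries. For 3 of them (miR-17-5p, miR-106b-5p and miR-19b-3p) no Control library reached that minimum, so they entered through the PA libraries alone. For miR-20a-5p only Control 3 reached it, and for miR-93-5p only Control 1, so neither could have passed without the PA libraries. Without adjustment, 112 of the 181 miRNAs had a p below 0.05.

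**Figure D1:**
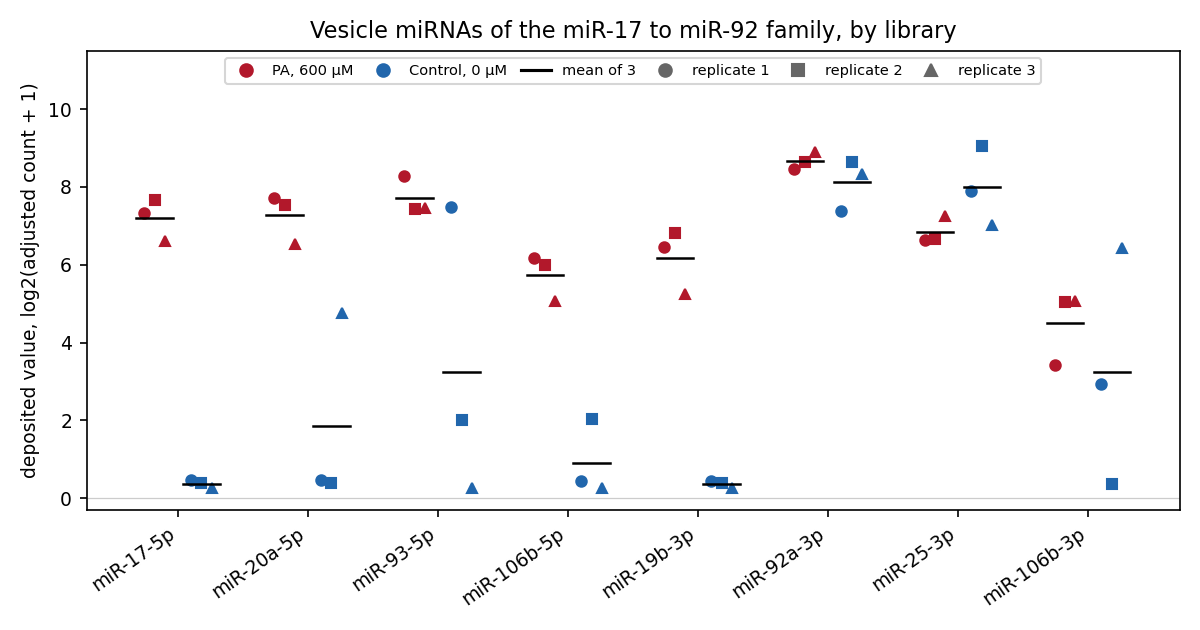
Deposited value, log2(adjusted count + 1), of each member in each library; red symbols are PA libraries, blue symbols Control libraries, shapes are replicate numbers and black bars the mean of 3. PA values of miR-17-5p, miR-20a-5p, miR-106b-5p and miR-19b-3p lie above every Control value, whereas those of the other 4 members overlap the Control libraries.

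miR-17-5p, the founding member of its seed group, had 329, 578 and 162 reads in PA libraries 1, 2 and 3, against 0, 0 and 0 reads in the Control libraries. The deposited log2 values were 7.34, 7.67 and 6.60 in PA libraries and 0.46, 0.38 and 0.27 in Control libraries, where they are what the authors' adjustment gives to 0 reads. All PA libraries were high and all Control libraries empty. Since a miRNA with no Control read can pass the filter only through PA libraries, this direction was bound to the filter: all 17 tested miRNAs with no Control read, miR-17-5p and miR-19b-3p among them, were called higher. The log2 change was 6.83 (SE 0.63, 95% interval 5.39 to 8.28, limma adjusted p = 4.9e-05, n = 3 each), rank 1 of the 181 by size. Because that figure depends on the value given to 0, a lower bound was computed from 3 reads summed over the Controls, and PA libraries were at least 58.9-fold higher by it on the adjusted count scale. The same 3 reads give at least 160.2-fold over all reads and at least 29.8-fold over reads other than miR-122. Relative to the median tested miRNA the change was 4.90 (adjusted p = 0.00042).

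Depth limits how much those zeros say, since a count of 0 allows up to 3 reads. In reads per 1000000 library reads (RPM), miR-17-5p stood at 412, 759 and 264 in PA libraries, against limits of 31.5, 4.56 and 11.9 in Control libraries 1, 2 and 3. Per 1000000 reads other than miR-122, it stood at 486, 860 and 303 in PA libraries, against limits of 102, 37.2 and 57.0 in Control libraries. The PA libraries therefore stood above the Control limits on both scales.

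miR-20a-5p, made from the same transcript as miR-17-5p, had 429, 532 and 155 reads in PA libraries and 0, 0 and 12 reads in Control libraries. Control 3 was the single Control library with reads, at a log2 value of 4.76, below the lowest PA value of 6.54. The rise was 5.40 (SE 1.30, interval 2.41 to 8.40, adjusted p = 0.00759). Set against the median it was 3.46 (adjusted p = 0.0488). Tested over all 1058 rows above 0 instead of the 181, its adjusted p was 0.0582.

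miR-106b-5p, the first miRNA of the paralog cluster, had 146, 178 and 55 reads in PA libraries and 0, 1 and 0 reads in Control libraries. All PA libraries were above all Control libraries. The rise was 4.83 (SE 0.65, interval 3.34 to 6.33, adjusted p = 0.000416), or 2.90 once the median was subtracted (adjusted p = 0.00579).

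miR-93-5p lies next to miR-106b in Mcm7 and was on average the most abundant miR-17 seed member in PA libraries, with 636, 492 and 296 reads, against 57, 1 and 0 reads in Control libraries. Control 1 was high and Controls 2 and 3 nearly empty: the log2 values were 8.28, 7.43 and 7.46 in PA libraries and 7.48, 2.02 and 0.27 in Control libraries, so the groups overlapped. The difference of 4.47 (SE 1.71, interval 0.54 to 8.41) had an adjusted p of 0.0529 and an exact two-sided permutation p of 0.3. Relative to the median tested miRNA the change was 2.53 (limma adjusted p = 0.245). Without Control replicate 1 the difference of 4.47 became 6.58 (adjusted p = 0.000939), and without Control replicate 3 it became 2.98 (adjusted p = 0.116). With all 6 libraries it also passed on library totals (adjusted p = 0.0182), with a pseudocount of 5 (0.0428) and with limma-voom (0.0324). It did not pass on totals without miR-122 (adjusted p = 0.11), centred on each library's median (0.0596) or with no filter (0.218). The call thus depends on these choices as well. Per 1000000 reads other than miR-122, miR-93-5p held 940, 732 and 554 in PA libraries and 1943, 12.4 and 0 in Control libraries. The means on that scale were 742 in PA libraries and 652 in Control libraries, with overlap. Control 1 was also the shallowest library, and it had the highest summed RPM of the erythroid, muscle, neuronal, immune and stellate cell markers. The erythroid marker miR-451a had 40, 115 and 13 reads in PA libraries and 486, 21 and 29 in Control libraries, and the summed erythroid markers reached 24.5 to 160.1 RPM in PA libraries and 38.0 to 5702 in Control libraries. Of the 3 erythroid markers, miR-144-3p was at 0 in every library, 2 were tested and 1 (miR-486a-5p) was lower. The part of these markers in the miR-93-5p values was not tested. The 3 tested miRNAs most like miR-93-5p over the 6 libraries, by root mean square difference of centred log2 values, were miR-130a-3p (0.86), miR-103-3p (0.98) and miR-29a-3p (1.21).

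miR-19b-3p, the sole member with the miR-19 seed, had 176, 321 and 63 reads in PA libraries and no read in any Control library. All PA libraries were above all Control libraries, and the rise was 5.81 (SE 0.55, interval 4.55 to 7.08, adjusted p = 5.3e-05), at least 30.2-fold higher by the same bound on the adjusted count scale and at least 15.5-fold over reads other than miR-122. Its change relative to the median was 3.87 (adjusted p = 0.000666). By the same measure of likeness, the nearest tested miRNAs were miR-31-3p (0.22), miR-96-5p (0.28) and miR-34a-5p (0.31). Their log2 values in Control libraries were 0.26 to 0.44, near those that miR-19b-3p had with no read. Likeness over the Control libraries thus rests on near-empty values.

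miR-92a-3p closes the miR-17 to miR-92 transcript and had the highest mean RPM of the members in both groups, with 715, 1148 and 804 reads in PA libraries and 53, 147 and 149 reads in Control libraries. The log2 values were 8.45, 8.65 and 8.90 in PA libraries and 7.37, 8.64 and 8.33 in Control libraries; Control 2 reached the PA range, and the groups overlapped. The difference was 0.55 (SE 0.45, interval -0.50 to 1.60, adjusted p = 0.31; exact permutation p = 0.2). Its direction depends on the scale: relative to the median tested miRNA it was -1.39 (adjusted p = 0.0299). miR-92a-3p took 1056, 1707 and 1505 reads per 1000000 reads other than miR-122 in PA libraries and 1806, 1821 and 2833 in Control libraries. On that scale every PA library was below every Control library. miR-30d-5p (0.24), miR-27a-3p (0.26) and miR-126a-3p (0.33), a vascular endothelial miRNA, were most like it by the same measure.

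miR-25-3p, with the same seed but from Mcm7, had 203, 285 and 257 reads in PA libraries and 76, 195 and 60 reads in Control libraries. The log2 values were 6.64, 6.65 and 7.26 in PA libraries and 7.89, 9.05 and 7.03 in Control libraries, so Controls 1 and 2 were high and Control 3 lay among the PA libraries. The difference of -1.14 (SE 0.61, interval -2.54 to 0.27) had an adjusted p of 0.14 and an exact permutation p of 0.2. Relative to the median tested miRNA it was -3.08 (adjusted p = 0.00318). Per 1000000 reads other than miR-122, it held 300, 424 and 481 in PA libraries and 2590, 2415 and 1141 in Control libraries, with no overlap; in RPM over all reads the means were 349 ± 85.3 in PA libraries and 444 ± 308 in Control libraries (SD, n = 3 each).

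miR-106b-3p had 20, 91 and 55 reads in PA libraries and 2, 0 and 40 reads in Control libraries, and Control 3 held its highest log2 value, 6.43. Its difference was 1.26 (SE 1.44, interval -2.07 to 4.58, adjusted p = 0.465; exact permutation p = 0.6). Size and sign depended on which Control library was left out. The difference was 2.85 without Control replicate 3 (limma adjusted p = 0.0289) and -0.18 without Control replicate 2 (limma adjusted p = 0.905). With all libraries, the change relative to the median tested miRNA was -0.68 (limma adjusted p = 0.711). PA libraries 1, 2 and 3 held 146, 178 and 55 reads of the other arm, miR-106b-5p, and Control 3 held 0 beside its 40 reads of this one. Its nearest tested miRNAs were further off, at 1.24 (miR-690), 1.28 (miR-6538) and 1.45 (miR-6238).

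**Figure D2:**
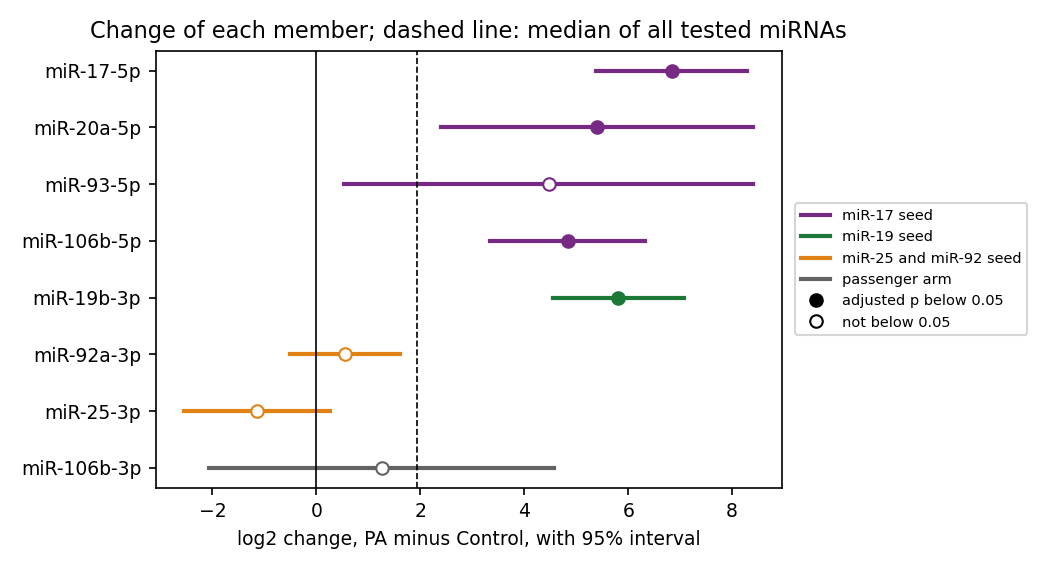
Log2 change, PA minus Control, of each member with its 95% interval from limma (n = 3 libraries each); colours mark the seed groups, filled points have an adjusted p below 0.05, the solid line is 0 and the dashed line the median of all tested miRNAs, 1.94. The 4 filled points lie between 4.83 and 6.83, and miR-92a-3p and miR-25-3p lie below the dashed line.

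In order of mean level, PA libraries held 1237 ± 313 RPM of miR-92a-3p, 641 ± 157 of miR-93-5p, 496 ± 226 of miR-20a-5p and 478 ± 254 of miR-17-5p (SD, n = 3). Then came miR-25-3p at 349 ± 85.3, miR-19b-3p at 248 ± 161, miR-106b-5p at 169 ± 73.0 and miR-106b-3p at 78.0 ± 48.3. miR-92a-3p lay apart from the next member in that order; each other neighbouring pair overlapped between PA libraries. In Control libraries miR-92a-3p (457 ± 203) and miR-25-3p (444 ± 308) led and overlapped, followed by miR-93-5p at 200 ± 345, which rests on Control 1, and miR-106b-3p at 59.8 ± 86.1. miR-20a-5p averaged 15.9 ± 27.5 and miR-106b-5p 0.51 ± 0.88, with miR-17-5p and miR-19b-3p at 0.

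Taken as shares of all reads of the 8 members, which needs no scaling between libraries, the make-up differed between groups. The miR-17 seed made up 58.0%, 49.1% and 36.2% of member reads in PA libraries and 30.3%, 0.58% and 4.60% in Control libraries. The miR-25 and miR-92 seed made up 34.6%, 39.5% and 57.4% in PA libraries and 68.6%, 99.4% and 80.1% in Control libraries. Neither share overlapped between groups. Both are parts of the same total, which they mostly fill, so their separations are not independent of each other. Control 1, the library with the miR-93-5p reads, came nearest to the PA libraries in both.

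In absolute share, the 8 members together held 3697 ± 932 RPM in PA libraries and 1177 ± 736 in Control libraries (SD, n = 3 each), with no overlap. With miR-122 reads left out of the total they held 4257 ± 1010 per 1000000 in PA libraries and 5210 ± 1095 in Control libraries, which overlapped. The scale turned the direction of the miR-25 and miR-92 seed. It held 1586 ± 387 RPM over all reads in PA libraries and 901 ± 422 in Control libraries, with overlap, but 1825 ± 412 per 1000000 reads other than miR-122 in PA libraries and 4202 ± 213 in Control libraries, without overlap. On that second scale the miR-17 seed held 2058 ± 724 in PA libraries and 732 ± 1054 in Control libraries, with overlap through Control 1. Sums over members are given as descriptions, with no test.

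**Figure D3:**
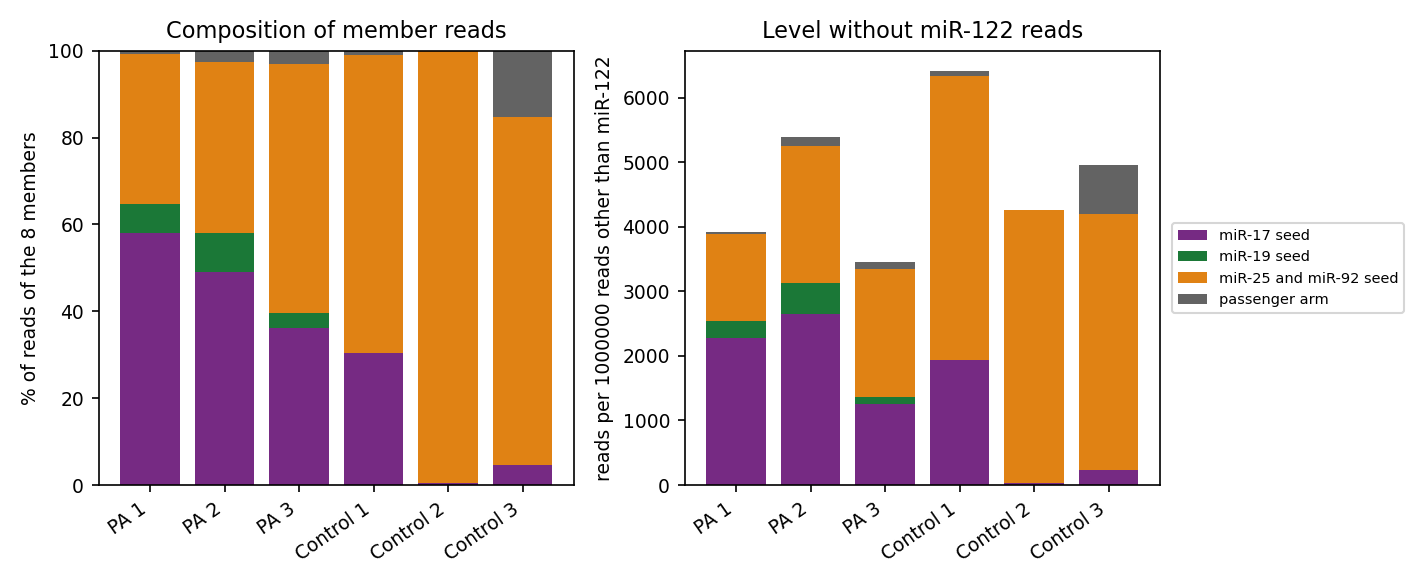
Left, percentage of the reads of the 8 members that carry each seed, per library; right, reads of each seed group per 1000000 reads other than miR-122. PA libraries are on the left of each panel and Control libraries on the right, and passenger arm stands for miR-106b-3p. The orange miR-25 and miR-92 seed takes 34.6% to 57.4% of member reads in PA libraries and 68.6% to 99.4% in Control libraries.

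The clusters were compared in the same way. In the miR-17 to miR-92 cluster 3 of 4 members rose and miR-92a-3p did not pass, with a median change of 5.61. In the miR-106b to miR-25 cluster 1 of 4 rose (miR-106b-5p), with a median of 2.86. With all reads of miR-19b-3p and miR-92a-3p assigned to it, although the X chromosome copies could give some, the miR-17 to miR-92 cluster made up 62.1%, 71.1% and 64.1% of member reads in PA libraries and 28.2%, 42.7% and 61.7% in Control libraries. Those ranges did not overlap, although Control 3 lay just under the lowest PA library. By seed, 3 of 4 miR-17 seed members rose, as did 1 of 1 with the miR-19 seed and 0 of 2 with the miR-25 and miR-92 seed. Beside these counts by cluster and by seed, 42.0% of all tested miRNAs were called higher. Of the 4 members that rose, 3 had entered the test through the PA libraries alone, and miR-20a-5p could not have passed the filter without them. The members also differ in base composition, with a GC content of 39.1% to 52.2% in the miR-17 seed members, 39.1% in miR-19b-3p, 57.1% in miR-92a-3p, 50% in miR-25-3p and 63.6% in miR-106b-3p. Across the 161 tested miRNAs with a mature sequence in RefSeq, which share the same 6 libraries and their scaling, GC content and log2 change had a Pearson r of -0.38 and a Spearman rho of -0.39; the part of GC content in the members' changes was not tested.

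**Figure D4:**
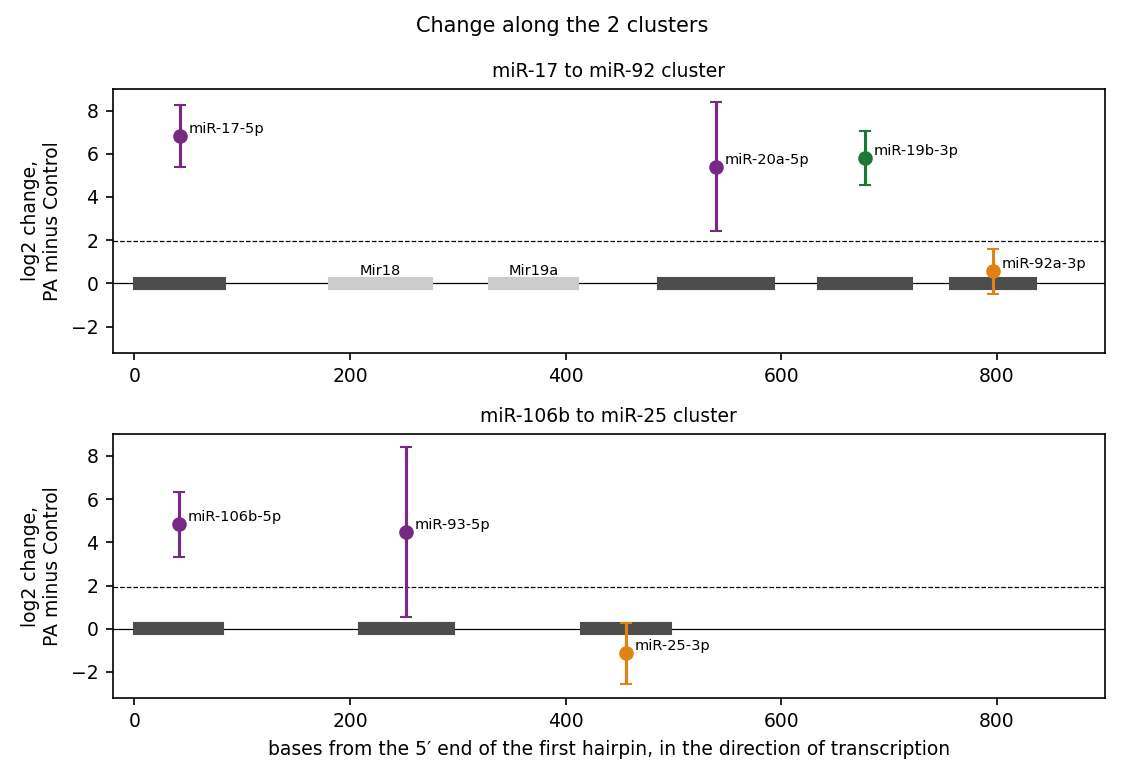
Hairpins of both clusters drawn to scale as boxes, in bases from the first hairpin along the transcript, with the log2 change (PA minus Control) of the main member arm and its 95% interval above or below; pale boxes are hairpins with no member, colours mark seeds as in the plot of changes, and the dashed line is the median of all tested miRNAs. In each cluster the last hairpin, coding for miR-92a-3p or miR-25-3p, carries the lowest change, 0.55 and -1.14.

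All 28 pairs of members were compared by their log2 difference within a library. The scaling between libraries largely cancels in a difference where both members have reads. It does not cancel where a member has no read in a library, since its value is then set by the adjustment. In 16 pairs the PA and Control libraries did not overlap, each with an exact two-sided permutation p of 0.1, the smallest that 3 against 3 libraries allow, and an adjusted p of 0.175 over the 28. No pair can pass the threshold by this test with 3 libraries a group. Of 7 pairs sharing a seed, 2 did not overlap, and of 12 pairs sharing a cluster, 6 did not. The share over pairs of all tested miRNAs was not computed. Among single tested miRNAs, 48.6% were higher and 19.3% lower with no overlap between groups. These pair counts are therefore descriptions and say nothing about seed or cluster.

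Within the miR-17 to miR-92 transcript, the log2 difference of miR-17-5p over miR-92a-3p was -1.11, -0.98 and -2.30 in PA libraries and -6.92, -8.26 and -8.06 in Control libraries. The gap of 6.28 log2 units (SE 0.59) rests on the value given to 0 reads; with 3 reads of miR-17-5p over the Control group, the ratio was at least 45.2-fold higher in PA libraries. Reads of miR-92a-3p may also come from the X chromosome cluster. miR-106b-5p over miR-25-3p, from the ends of the Mcm7 cluster, stood at -0.46, -0.66 and -2.19 in PA libraries and -7.45, -7.01 and -6.77 in Control libraries, 5.97 apart (SE 0.58), with 1 read of miR-106b-5p in all Control libraries together. miR-93-5p over miR-25-3p, from the same cluster, was 1.64, 0.78 and 0.20 in PA libraries and -0.41, -7.03 and -6.76 in Control libraries, 5.61 apart (SE 2.20) with no overlap, Control 1 lying nearest to the PA libraries.

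The 7 pairs that share a seed differed between groups by -0.36 to 2.36. miR-20a-5p over miR-106b-5p, which come from different chromosomes, was 1.54, 1.56 and 1.47 in PA libraries, and 0.02, -1.65 and 4.50 in Control libraries, where reads were few. miR-17-5p over miR-20a-5p was -0.38, 0.12 and 0.06 in PA libraries and 0.00, 0.00 and -4.50 in Control libraries, with a gap of 1.43 (SE 1.51, exact permutation p = 0.5). miR-17-5p over miR-106b-5p differed by 2.0 (SE 0.58) and miR-17-5p over miR-19b-3p by 1.02 (SE 0.16), both without overlap. Since these 3 had at most 1 read in any Control library, those gaps are set by their PA levels and by the value given to 0 reads.

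miR-92a-3p and miR-25-3p share a seed and were read in every library. Their log2 difference was 1.81, 2.0 and 1.64 in PA libraries and -0.51, -0.40 and 1.30 in Control libraries, a gap of 1.69 (SE 0.60) with no overlap. miR-92a-3p exceeded miR-25-3p in all PA libraries and in Control 3, and was below it in Controls 1 and 2. The arms of the miR-106b hairpin showed no such separation: miR-106b-5p over miR-106b-3p was 2.77, 0.95 and 0.00 in PA libraries and -2.51, 1.66 and -6.17 in Control libraries, a gap of 3.58 (SE 2.40, exact permutation p = 0.3). That gap was 1.66 without Control replicate 3 and 5.58 without Control replicate 2.

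**Figure D5:**
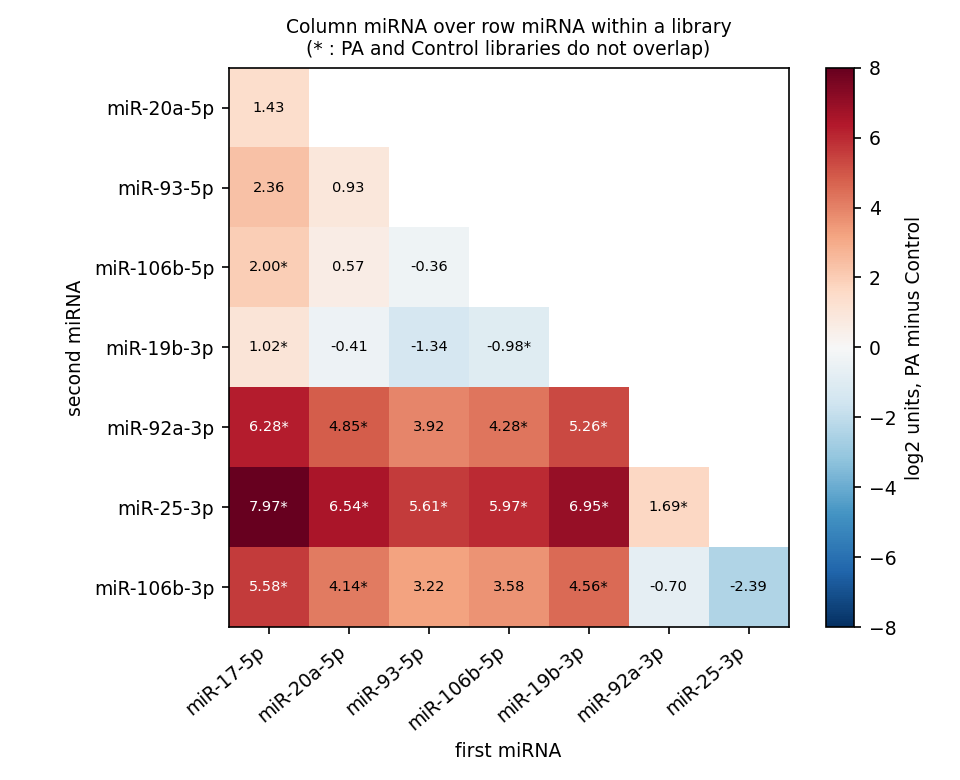
Difference between groups, PA minus Control, in the within-library log2 ratio of the column miRNA over the row miRNA, for all 28 pairs (n = 3 libraries each); an asterisk marks pairs whose PA and Control libraries do not overlap. For each miR-17 and miR-19 seed member the gap was larger against miR-25-3p, at 5.61 to 7.97, than against miR-92a-3p, at 3.92 to 6.28. By arithmetic the excess is the same for each of them, the 1.69 gap of miR-92a-3p over miR-25-3p. It is thus a single difference and not a repeated one.

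Among the PA libraries, replicate 3 stood lowest for miR-17-5p, miR-20a-5p, miR-106b-5p and miR-19b-3p and highest for miR-92a-3p, miR-25-3p and miR-106b-3p on the deposited log2 scale. For miR-93-5p replicate 2 was lowest, at 7.43, with replicate 3 at 7.46.

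The rest of the family was sparse. Of 24 further rows that come from the 3 clusters or share a member's seed, 9 had no read in any library, 14 had a read in a PA library and 3 in a Control library. Only miR-32-5p passed the filter. It had 99, 61 and 26 reads in PA libraries and 0, 3 and 0 in Control libraries, with no overlap, and rose by 3.41 (SE 0.85, adjusted p = 0.00905), which became an adjusted p of 0.0835 over all 1058 rows above 0. Its change relative to the median was 1.47 (adjusted p = 0.174). It has the seed of miR-92a-3p and miR-25-3p but differs from miR-92a-3p at 10 of the 21 bases compared.

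miR-18a-5p, from the second hairpin of the miR-17 to miR-92 cluster, had 19, 117 and 40 reads in PA libraries and 0 in every Control library, and fell short of the filter. miR-19a-3p, which differs from miR-19b-3p by C11U, had 27, 18 and 4 reads in PA libraries and 0 in every Control library. miR-106a-5p and miR-20b-5p, the miR-17 seed products of the X chromosome cluster, had 4 reads each over all PA libraries and 0 in Control libraries. miR-363-3p of the same cluster was read 0 times in PA libraries and 10 times in Control 1.

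The other cell type markers were low beside the hepatocyte markers, whose summed level was 302775 to 462450 RPM in PA libraries and 637336 to 825355 in Control libraries. Endothelial markers summed to 3743 to 4957 RPM in PA libraries and 865 to 3420 in Control libraries, and stellate cell markers to 463 to 599 RPM in PA libraries and 157 to 2153 in Control libraries. Immune cell markers summed to 202 to 398 RPM in PA libraries and 206 to 1617 in Control libraries. Of the hepatocyte markers miR-192-5p was called higher and miR-122-5p lower, of the 6 immune cell markers 2 were tested and miR-146a-5p was called lower, and of the 2 endothelial and 4 stellate cell markers 1 and 2 were tested and none was called. Striated muscle markers summed to 26.3 to 50.1 in PA libraries and 95.8 to 2363 in Control libraries, with miR-133a-3p at 0 throughout, and 1 of 3 (miR-206-3p) was lower. Biliary markers reached 4.89 to 22.5 in PA libraries and 0 to 123 in Control libraries, and neuronal markers 0 to 12.5 in PA libraries and 0 to 2751 in Control libraries. With miR-122 left out of the total, endothelial markers held 4419 to 5616 per 1000000 reads in PA libraries and 7047 to 16408 in Control libraries. On that scale the immune, stellate cell, muscle and erythroid sums were likewise lower in every PA library than in any Control library. The part of the markers in the members' values was not tested.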

How the data were processed

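Per the labels' protocols, RNA was taken up in Trizol and libraries were built with the NEBNext small RNA kit. Bowtie2, bedtools and GRCm38 (mm10) are named in the submitters' processing notes; how reads were counted is not given in the sources used here. Values stand for 1976 mature miRNAs by 6 libraries. The deposited log2 values are named raw counts but are, from the values, log2(adjusted count + 1) after a negative binomial quantile adjustment that no label states. Inverting it (fitted dispersion 1.39) gave whole reads for 99.8% of the 1936 values that could be tested, within 0.0015 log2 units; for miR-92a-3p 2 read sets were possible and the nearest was used. In 108 rows above 0 no read was recovered, so the adjustment may have drawn on further libraries, not analysed here. Limits and lower bounds given for members with no Control read cover counting error only. The intervals of the log2 changes come from limma and rest on library-to-library spread.

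The deposited log2 values were fitted with limma 3.58.1 in R 4.3.3, using its trend option and a group term, for miRNAs reaching an adjusted count of 10 in 3 libraries, with Benjamini-Hochberg adjustment at 0.05, two-sided. Changes of low miRNAs on this scale depend on the value given to 0 reads and on the scaling. For miR-17-5p the change was 6.83, against 4.84 with a pseudocount of 5 and 7.77 with library totals. Single values were also compared by an exact permutation test, two-sided, whose smallest p is 0.1. Read counts of replicates differed by 79 to 478 times the sampling noise (chi-square per degree of freedom), so no library appeared to be a second copy of another. Fits and inversion were tested on simulated data. Members and lists were chosen with earlier results of these data known. All members were named, with the 3 tested miRNAs nearest to the most-read member of a seed group.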

Additional observations from a re-analysis of the deposited data

How the results depend on the processing

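Over all 181 miRNAs, the 76 called higher and 26 called lower were 48 and 59 relative to the median, and 29 called higher with an adjusted count of 10 in all 6 libraries, where fewer miRNAs (80) were tested. The count called lower was 10 with library totals, 46 with totals without miR-122, 40 centred on each library's median, 60 with no filter and 9 with limma-voom. Leaving out 1 library in turn gave 63 to 85 higher and 20 to 32 lower. Members called higher were 4, and 0 with 10 in all 6 libraries, where only miR-92a-3p and miR-25-3p were tested; the other alternatives gave 3 (no filter) to 5. miR-17-5p, miR-19b-3p and miR-106b-5p were called in all 17 alternatives run for each, miR-20a-5p in 16. The first 3 of these had entered the test through the PA libraries alone, and none of the 17 removes that. miR-20a-5p could not have passed the filter without the PA libraries either, and with no filter it was not called (limma adjusted p = 0.0582). The counts for these 4 members are therefore no independent support for the rise.

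miR-92a-3p reversed to -1.39 relative to the median (adjusted p = 0.0299). miR-25-3p was called lower in 5 of 18 alternatives, among them totals without miR-122 (-2.29, adjusted p = 0.00791), and was -0.17 with library totals. miR-93-5p was called higher in 5 of 17. The miR-25 and miR-92 seed sum was 685 RPM higher in PA libraries, and -2378 with miR-122 left out of the total. The causes of these changes were not tested. Over the same 181 miRNAs, other scalings put the median change at 0.76 (totals without miR-122) to 2.88 (library totals); it was 0.20 with no filter and 0.095 with 10 in all 6 libraries.

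Same-numbered libraries correlated at 0.21, 0.15 and 0.038 in their deviations, so the numbers were not taken as pairs, and Control 3 correlated best with PA 2 (0.062). A replicate block gave 83 higher and 28 lower, and an adjusted p of 0.00638 for miR-93-5p. Control depth without miR-122, 29340 to 80742 reads, limits the members at 0.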
